A study of Mus musculus with 6 samples.

Results

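The genes described here encode the microtubule-associated protein tau (Mapt), the related proteins MAP1A, MAP1B and MAP2, and kinases and a kinase activator known to act on tau (Gsk3a, Gsk3b, Cdk5, Cdk5r1, Mark2 and Fyn). They were taken by gene symbol from a table of 24318 genes, and 10 of 10 had a row. The samples were CAD cells, a mouse catecholaminergic neuronal line grown from a brain tumour, so all values come from 1 line. In 3 libraries (siCircGigyf2) the cells had received an siRNA against circGigyf2, a circular RNA back-spliced from the gene Gigyf2. In 3 libraries (siNC) they had received a control siRNA. Total RNA was depleted of ribosomal RNA before sequencing. The sources used here give neither the dose nor the length of the siRNA treatment. They do not say whether the replicates were separate cultures either, so the spread behind every p-value is that of these 6 samples and may be technical. The series concerns circular RNAs in Alzheimer disease, and the comparison addresses the transcripts that respond to targeting of circGigyf2.

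Tau binds along axonal microtubules and is the protein of the neurofibrillary tangles of Alzheimer disease, where it is heavily phosphorylated. MAP2 shares tau's microtubule-binding repeats and is the classic dendritic member of the family, whereas MAP1A and MAP1B are large proteins of a separate family, with MAP1B prominent in growing axons. GSK3 and CDK5 phosphorylate tau at serines and threonines followed by proline, MARK2 phosphorylates the repeats and weakens microtubule binding, and FYN is a tyrosine kinase that phosphorylates tau near its amino terminus.

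Levels are given in FPKM, a count of fragments divided by transcript length and by the mapped fragments of the library. That puts genes of unlike length on a common scale, but the transcript lengths used are not known here. Orders and shares across genes are therefore rough, and small gaps between genes may not hold. Summed FPKM per library ranged over 604881 to 624645 for siCircGigyf2 and over 578627 to 601552 for siNC. Absolute depth is unknown. The size of 1 fragment among low values put depth, relative to siNC replicate 1, at 0.802 to 0.914 for siCircGigyf2 and at 0.953 and 0.979 for the other siNC libraries. Of 16 catecholaminergic and neuronal markers, 15 averaged at least 1 FPKM, among them Chgb at 965 to 1097 FPKM and Snap25 at 103 to 123 FPKM. The catecholamine enzymes were low, with Th at 2.82 to 4.85 FPKM, Dbh at 0.925 to 2.14 FPKM and Ddc at 0.235 to 0.493 FPKM. These ranges run over both groups. Of the 15 markers tested, 4 rose and 5 fell at a limma adjusted p under 0.05 (60%, against 38.2% of all genes tested). Gap43 rose by 0.59 and Dbh fell by 0.37 on the log2(FPKM + 1) scale. What these shifts mean for the results was not tested. All 6 astrocyte markers averaged under 1 FPKM, as did 5 of 6 for microglia, 5 of 6 for oligodendrocytes and 4 of 6 for fibroblasts. Listed at 0 in all libraries were the astrocyte markers Aqp4, Aldh1l1 and Slc1a3, the oligodendrocyte marker Mag, and the fibroblast markers Col1a2, Col3a1 and Lum. A 0 in this table can be a failed estimate, since the broadly expressed kinase gene Dyrk1a is also listed at 0 in all 6, so these rows do not show that a marker was low. Col1a1 averaged 1.47 ± 0.198 FPKM in siCircGigyf2 cells and 0.924 ± 0.116 FPKM in siNC cells (SD, n = 3 each), a rise (limma adjusted p = 0.0180) that was lost without siCircGigyf2 replicate 1 (0.0606) or siNC replicate 2 (0.0615). The summed microglial markers, mostly Tmem119, lay at 0.632 to 1.15 FPKM in the siCircGigyf2 libraries and at 1.42 to 1.69 FPKM in the siNC libraries, with P2ry12 and C1qa listed at 0 in all 6, and the part of these markers in the results was not tested. Gigyf2, the host gene, averaged 21.4 ± 0.330 FPKM in siCircGigyf2 cells and 23.2 ± 0.0749 FPKM in siNC cells (SD, n = 3 each), a value that pools linear and circular molecules and so does not check the knockdown. Its log2 difference of -0.11 passed the test (limma adjusted p = 0.0287), a call kept under only 8 of 14 alternatives. The circular RNA itself was not analysed here.

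Among the 10 genes, Map2 and Gsk3b rose, Mapt and Fyn fell, and Map1a, Map1b, Gsk3a, Cdk5, Cdk5r1 and Mark2 did not pass the test. All changes were small, at most 0.27 on the log2(FPKM + 1) scale. The test was limma on log2(FPKM + 1), fitted over the 11420 genes that averaged at least 1 FPKM, with Benjamini-Hochberg adjusted p-values over all of them and a threshold of 0.05. All 10 genes passed that filter. The 4 that passed the test, 2 higher and 2 lower, stand against a background of 38.2% of all genes tested (19.5% higher and 18.7% lower). The groups did not overlap for 5 of the 10, against 51.0% of all genes tested. The median log2 difference of the 10 was -0.01, and that of all genes tested was 0.00035. Both shares are close to the background.

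**Figure D1:**
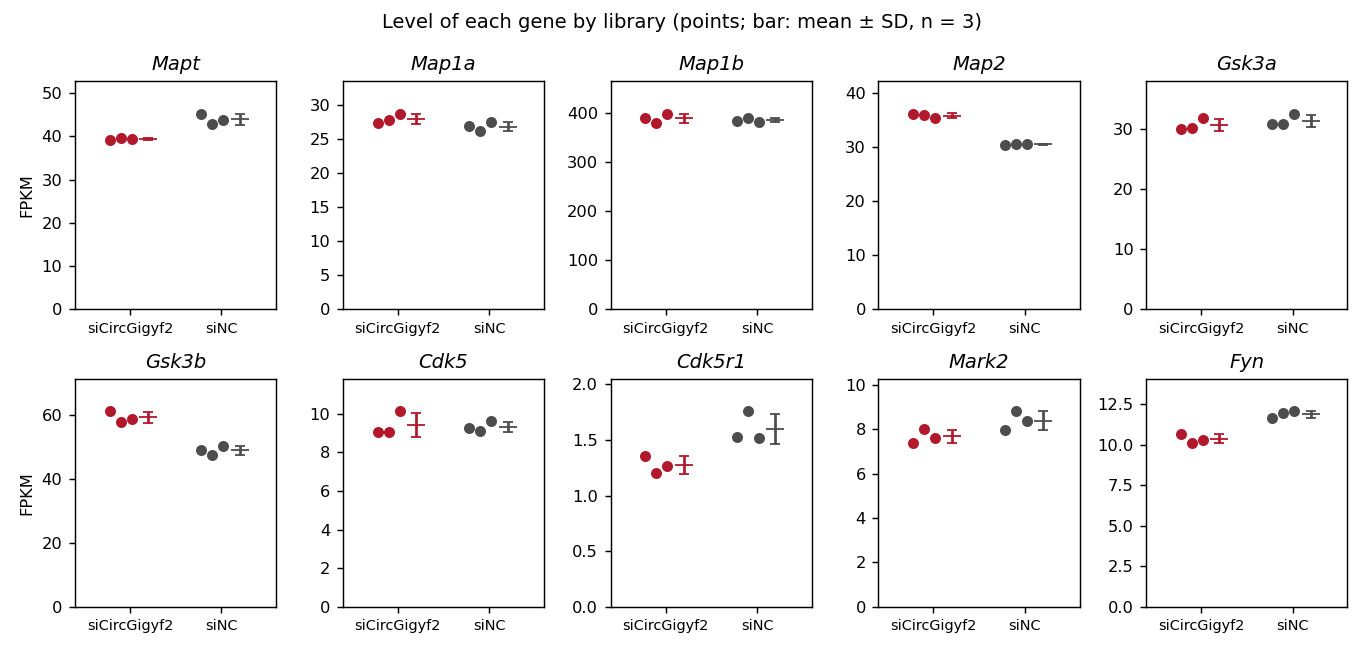
FPKM (vertical axes, from 0) of the 10 genes in each library, siCircGigyf2 in red and siNC in grey, with the mean ± SD of 3 libraries beside the points. Map2 and Gsk3b sit higher in all 3 siCircGigyf2 libraries, Mapt, Fyn and Cdk5r1 lower, and the groups overlap for the other genes.

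Mapt, which encodes tau, stood at 39.2, 39.6 and 39.5 FPKM in the siCircGigyf2 libraries, against 45.3, 42.8 and 43.8 FPKM in the siNC libraries. The siCircGigyf2 libraries lay close together and all below the lowest siNC library. Mapt averaged 39.4 ± 0.200 FPKM in siCircGigyf2 cells and 43.9 ± 1.27 FPKM in siNC cells (SD, n = 3 each), a ratio of 0.897. On the log2(FPKM + 1) scale Mapt fell by 0.15 (SE 0.032, 95% interval -0.23 to -0.08, limma adjusted p = 0.00565). The fall was larger in size than the change, up or down, of 59.2% of all genes tested. These are gene-level values, so isoforms that differ in the number of microtubule-binding repeats are pooled, and a lower bulk level cannot tell less RNA per cell from fewer cells that make it.

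One annotated Mapt transcript carries in its 3' UTR a 7-base word, GCCTACA, that had been picked earlier from these same differences because genes holding it tended to be lower. The word is shown here with the bases around it (capitals mark the word, letters as in the transcript, 5' to 3', GENCODE M21 on GRCm38), beside the 5 of 11 other holders in the related lists described further on that passed the test; the other 6 did not pass (Stk11, Camk2a, Map1lc3b, Ttll7, Ube2w and Pik3ca).
Mapt: cagatccataGCCTACAcactgctagcagt
Mapre1: tgcgtcttttGCCTACAtatatgtctgcac
Map9: tagtcacttgGCCTACAtttgtggcataca
Clasp1: ctgtcgtccaGCCTACAtatgagtgccata
Cdk5r2: cgctggaagcGCCTACAgatggtttcgcgc
Capn2: cagggactgtGCCTACAgctggggaggaca
In Mapt the word starts at base 3490 of the 3903-base 3' UTR, and it was present in 1 of 3 annotated coding transcripts. None of the 3' UTRs of the other 9 genes held it in any annotated coding transcript. Among all genes searched, 7.58% (803 of 10588) held the word on the transcript strand, with a median log2 difference of -0.09, against 0.0048 for genes without it. Of the genes printed, Mapt, Mapre1 and Map9 fell, whereas Clasp1, Cdk5r2 and Capn2 rose with the word in the 3' UTR. Fyn fell without it. A match is a description of these letters only, and whether it bears on the level of Mapt was not tested.

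Map2, the relative of tau, stood at 36.2, 36.0 and 35.4 FPKM in the siCircGigyf2 libraries, against 30.4, 30.5 and 30.6 FPKM in the siNC libraries. Every siCircGigyf2 library was higher than every siNC library, and the replicates of each group differed by under 1 FPKM. The means were 35.8 ± 0.431 FPKM in siCircGigyf2 cells and 30.5 ± 0.144 FPKM in siNC cells (SD, n = 3 each), an increase of 17.5%. Map2 rose by 0.23 on the log2 scale (SE 0.030, 95% interval 0.16 to 0.29, limma adjusted p = 0.000518). An antisense gene, Gm10558, overlaps a Map2 exon by 65 bases in the annotation, and counting was not stated to use strand.

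Map1b, the most abundant of the 10, stood at 388, 378 and 398 FPKM in the siCircGigyf2 libraries, against 382, 389 and 382 FPKM in the siNC libraries. The groups overlapped, and the log2 difference was 0.01 (95% interval -0.06 to 0.08, limma adjusted p = 0.752). Its sign was not stable, at -0.05 after quantile normalization. Map1a stood at 27.3, 27.8 and 28.7 FPKM in the siCircGigyf2 libraries, against 26.8, 26.1 and 27.4 FPKM in the siNC libraries. One siNC library reached into the siCircGigyf2 range, and the log2 difference was 0.06 (95% interval -0.02 to 0.14, limma adjusted p = 0.243). The interval for Map1b excludes a rise of the size seen for Map2 (0.23) and that for Map1a does so too. Exons of Map1a and the oppositely transcribed gene Ppip5k1 overlap by 272 bases in the annotation, so the Map1a value may hold some of its reads.

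Summed over tau, MAP1A, MAP1B and MAP2 the level was 482 to 501 FPKM in the siCircGigyf2 libraries and 483 to 489 FPKM in the siNC libraries, with overlapping groups. Map1b made up 79.0% ± 0.403 of that sum in siCircGigyf2 cells and 79.1% ± 0.446 in siNC cells (SD, n = 3 each). Mapt made up 8.03% ± 0.171 in siCircGigyf2 cells and 9.05% ± 0.297 in siNC cells, and Map2 7.30% ± 0.219 in siCircGigyf2 cells and 6.28% ± 0.0469 in siNC cells, both without overlap.

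Because Map2 and Mapt moved in opposite directions, their ratio within a library moved more than either level. Map2 stood at 0.923, 0.909 and 0.895 of the Mapt level in the siCircGigyf2 libraries, against 0.670, 0.714 and 0.700 in the siNC libraries. The groups were far apart relative to their spread, and the log2 ratio differed by 0.39. Two-sided exact permutation tests over 3 against 3 libraries cannot give a p below 0.1, the value found here, which came to 0.125 after adjustment over the 5 ratios computed. The Map1b to Mapt ratio averaged 9.84 ± 0.258 in siCircGigyf2 cells and 8.75 ± 0.333 in siNC cells (SD, n = 3 each), also without overlap (exact permutation p = 0.1, adjusted 0.125). The Map1a to Map1b ratio overlapped, at 0.0719 ± 0.0015 in siCircGigyf2 cells and 0.0697 ± 0.0025 in siNC cells (exact permutation p = 0.2, adjusted 0.2).

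**Figure D2:**
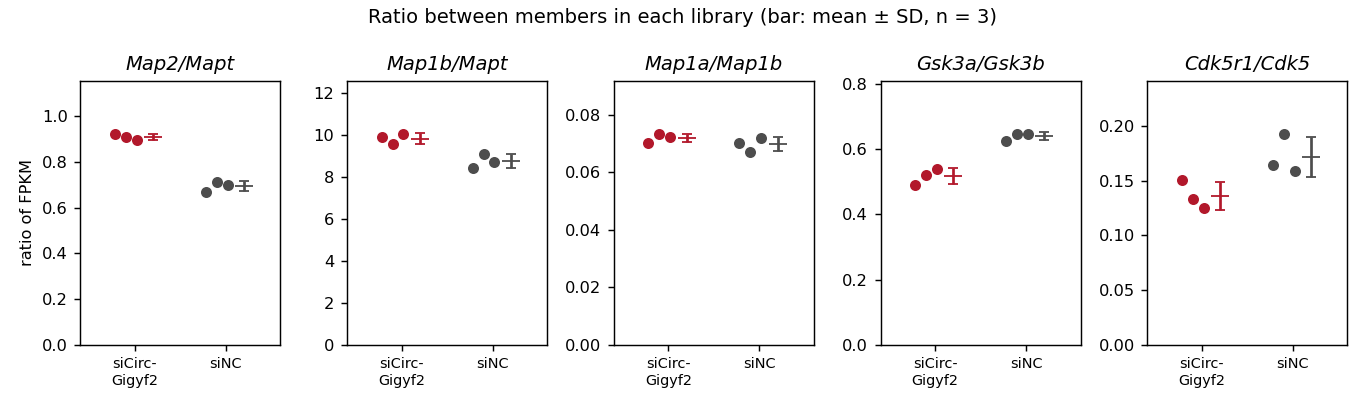
Ratio of FPKM of 2 genes within each library (vertical axes, from 0), siCircGigyf2 in red and siNC in grey, with the mean ± SD of 3 libraries. Map2/Mapt and Map1b/Mapt are higher in all 3 siCircGigyf2 libraries, Gsk3a/Gsk3b and Cdk5r1/Cdk5 lower, and Map1a/Map1b overlaps.

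The paralogous GSK3 kinases differed from each other. Gsk3b stood at 61.2, 57.8 and 58.9 FPKM in the siCircGigyf2 libraries, against 49.2, 47.6 and 50.2 FPKM in the siNC libraries. All siCircGigyf2 libraries were higher, with a gap of several FPKM to the highest siNC library. The means were 59.3 ± 1.75 FPKM in siCircGigyf2 cells and 49.0 ± 1.33 FPKM in siNC cells (SD, n = 3 each), a ratio of 1.21, and Gsk3b rose by 0.27 on the log2 scale (SE 0.035, 95% interval 0.19 to 0.35, limma adjusted p = 0.000436). That was the largest rise of the 10, larger in size than the change of 82.8% of all genes tested. Gsk3a stood at 30.0, 30.1 and 31.8 FPKM in the siCircGigyf2 libraries, against 30.7, 30.8 and 32.5 FPKM in the siNC libraries. These ranges overlapped, and the log2 difference was -0.03 (95% interval -0.12 to 0.06, limma adjusted p = 0.547), ranging from -0.058 without siCircGigyf2 replicate 3 to -0.0060 without siNC replicate 3. The Gsk3a to Gsk3b ratio was 0.490, 0.521 and 0.539 in the siCircGigyf2 libraries, against 0.624, 0.647 and 0.647 in the siNC libraries, and its log2 value differed by -0.31 (exact permutation p = 0.1, adjusted 0.125). An antisense gene, 9130221H12Rik, overlaps a Gsk3a exon by 576 bases in the annotation, so reads of that gene could enter the Gsk3a value.

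CDK5 needs a partner such as p35, the product of Cdk5r1, to be active. Cdk5 stood at 9.05, 9.03 and 10.1 FPKM in the siCircGigyf2 libraries, against 9.26, 9.11 and 9.60 FPKM in the siNC libraries. The groups overlapped, and the log2 difference was 0.01 (95% interval -0.11 to 0.13, limma adjusted p = 0.909), with a sign that turned without siCircGigyf2 replicate 3 (-0.04) or siNC replicate 2 (-0.0053). Cdk5r1 was the scarcest of the 10, at 1.36, 1.20 and 1.27 FPKM in the siCircGigyf2 libraries, against 1.53, 1.76 and 1.52 FPKM in the siNC libraries. All siCircGigyf2 libraries were lower, with means of 1.28 ± 0.0785 FPKM in siCircGigyf2 cells and 1.60 ± 0.135 FPKM in siNC cells (SD, n = 3 each). The log2 difference of -0.19 (SE 0.082, 95% interval -0.38 to -0.01) did not pass the test over all genes (limma adjusted p = 0.0960), and it was -0.31 with a pseudocount of 0.1, where it did not pass either. Without a mean-variance trend in the fit Cdk5r1 passed (adjusted p = 0.0244). The Cdk5r1 to Cdk5 ratio averaged 0.136 ± 0.0129 in siCircGigyf2 cells and 0.172 ± 0.0183 in siNC cells (SD, n = 3 each), without overlap (exact permutation p = 0.1, adjusted 0.125). Its log2 difference was -0.34, and -0.20 with 1 FPKM added to each level. Cdk5r2, which encodes the other neuronal CDK5 activator, p39, and is named here after its values were seen, stood at 13.6, 15.0 and 13.1 FPKM in the siCircGigyf2 libraries, against 11.9, 10.9 and 12.5 FPKM in the siNC libraries. It rose by 0.22 on the log2 scale (limma adjusted p = 0.0210), a call that was lost without siCircGigyf2 replicate 2 (0.0640), without siNC replicate 2 (0.0705) and without a filter on low values (0.0561).

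Fyn, the Src-family tyrosine kinase, stood at 10.7, 10.1 and 10.3 FPKM in the siCircGigyf2 libraries, against 11.6, 11.9 and 12.1 FPKM in the siNC libraries. All siCircGigyf2 libraries were lower than all siNC libraries. Fyn averaged 10.4 ± 0.279 FPKM in siCircGigyf2 cells and 11.9 ± 0.217 FPKM in siNC cells (SD, n = 3 each), a log2 fall of 0.18 (SE 0.042, 95% interval -0.28 to -0.09, limma adjusted p = 0.00925). Mark2 stood at 7.41, 8.02 and 7.62 FPKM in the siCircGigyf2 libraries, against 7.96, 8.82 and 8.37 FPKM in the siNC libraries. The second siCircGigyf2 library lay inside the siNC range, and the log2 difference of -0.11 (95% interval -0.23 to 0.01) did not pass (limma adjusted p = 0.136).

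**Figure D3:**
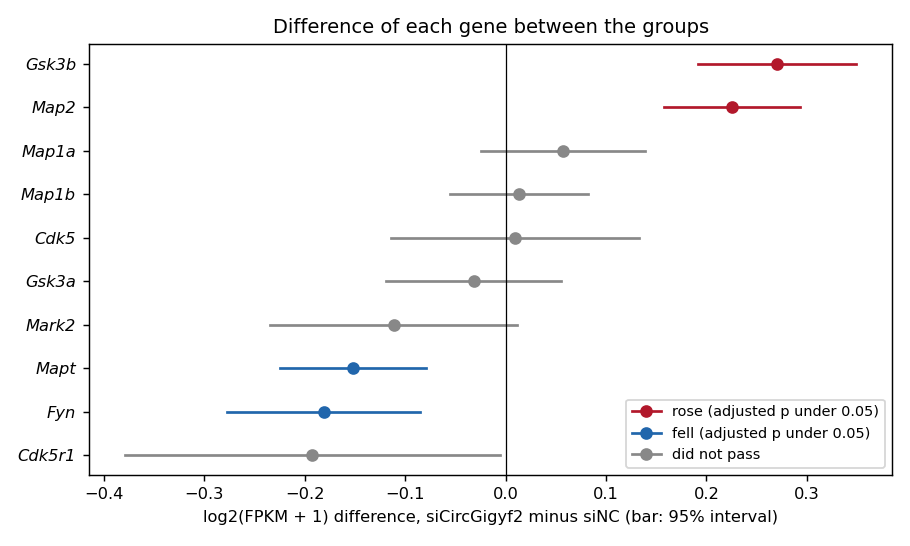
Difference of each gene on the log2(FPKM + 1) scale, siCircGigyf2 minus siNC (horizontal axis), with its 95% interval from limma, ordered from the largest rise down. Gsk3b (0.27) and Map2 (0.23) rose, Mapt (-0.15) and Fyn (-0.18) fell, and Cdk5r1 has the widest interval (-0.38 to -0.01).

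Ordered by level, the siCircGigyf2 libraries gave Map1b, Gsk3b, Mapt, Map2, Gsk3a, Map1a, Fyn, Cdk5, Mark2 and Cdk5r1, and the siNC libraries the same order but for Gsk3a and Map2, which changed places. In siCircGigyf2 cells the Map2 libraries (35.4 to 36.2 FPKM) lay above those of Gsk3a (30.0 to 31.8 FPKM), whereas in siNC cells those of Map2 (30.4 to 30.6 FPKM) lay just below those of Gsk3a (30.7 to 32.5 FPKM). Fyn and Cdk5 overlapped in siCircGigyf2 cells, and all other neighbours in either order were apart in these libraries. Map1b was higher than 98.4% of all genes tested in both groups, and Cdk5r1 was higher than 2.77% in siCircGigyf2 cells and 5.45% in siNC cells. Within a group the spread was smallest for Mapt in siCircGigyf2 cells (a coefficient of variation of 0.507%) and for Map2 in siNC cells (0.472%), and largest for Cdk5 in siCircGigyf2 cells (6.68%) and Cdk5r1 in siNC cells (8.43%).

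The genes whose log2 profile over the 6 libraries, less its mean, lay closest to those of Mapt, Map2 and Cdk5r1 were also named, by Euclidean distance. For Mapt these were Tjp1, Igfbp4 and Dnajc7, at distances of 0.0227, 0.0349 and 0.0399, where the median gene lay at 0.290. For Map2 they were Vdac1, Nab1 and Usp35, at 0.0189, 0.0202 and 0.0212 (median 0.339). For Cdk5r1 they were AI837181, Slc7a3 and Spred3, at 0.0477, 0.0548 and 0.0568 (median 0.340). These genes were picked as the nearest of all genes tested, so distances far under the median follow from the choice. Whether they are linked to Mapt, Map2 or Cdk5r1 was not tested.

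Each of the related lists is read against the 38.2% of all genes that passed (19.5% higher and 18.7% lower). Of 34 other kinases and activators that act on tau and were tested, 10 rose and 3 fell (38.2% in all), with a median log2 difference of 0.09 that ranged from 0.05 to 0.09 under the alternatives. Csnk2a2, a catalytic subunit of casein kinase 2, averaged 23.3 ± 0.993 FPKM in siCircGigyf2 cells and 19.1 ± 1.18 FPKM in siNC cells (SD, n = 3 each), and Mapk3, which encodes ERK1, 78.0 ± 3.64 FPKM in siCircGigyf2 cells and 66.4 ± 3.73 FPKM in siNC cells. The JNK gene Mapk9 fell, with 19.9 ± 0.679 FPKM in siCircGigyf2 cells and 24.5 ± 0.664 FPKM in siNC cells, as did the tyrosine kinase gene Abl1, with 9.51 ± 0.701 FPKM in siCircGigyf2 cells and 11.3 ± 0.286 FPKM in siNC cells. Limma adjusted p for these 4 lay between 0.000659 and 0.0124. Of 30 phosphatase genes and regulators, 5 rose and 7 fell (40.0% in all, median 0.03, 0.01 to 0.06 under the alternatives), but only 6 passed without siNC replicate 2 and 7 without siCircGigyf2 replicate 3. Ppp2r1b, a scaffold subunit of PP2A, the main tau phosphatase, averaged 8.67 ± 0.469 FPKM in siCircGigyf2 cells and 13.8 ± 0.770 FPKM in siNC cells, a log2 difference of -0.61 (limma adjusted p = 7.97e-05). Ppp2r1a, the other and more abundant scaffold gene, named after its values were seen, rose by 0.12 (163 ± 3.16 FPKM in siCircGigyf2 cells and 150.2 ± 7.31 FPKM in siNC cells, adjusted p = 0.0380), a call lost under 9 of 14 alternatives, among them leaving out any library but siNC replicate 1. Ppme1, which removes the methyl group of the PP2A catalytic subunit, rose (81.6 ± 3.72 FPKM in siCircGigyf2 cells and 67.3 ± 0.963 FPKM in siNC cells), and C330027C09Rik, an older symbol of the PP2A inhibitor gene Cip2a, fell (8.67 ± 0.286 FPKM in siCircGigyf2 cells and 10.7 ± 0.477 FPKM in siNC cells). Ppp2r3a, a regulatory subunit, rose by 0.18, a call lost without siCircGigyf2 replicate 1, siNC replicate 2 or siNC replicate 3 (adjusted p from 0.0598 to 0.0697).

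Of 36 other microtubule-associated, stabilising, plus-end and destabilising proteins tested, 14 rose and 3 fell (47.2% in all). Their median was 0.07, and 0.06 to 0.08 under the alternatives. Clasp1, a microtubule plus-end stabiliser, averaged 24.5 ± 0.203 FPKM in siCircGigyf2 cells and 19.0 ± 0.609 FPKM in siNC cells (SD, n = 3 each), and Camsap1, a minus-end binding protein, 18.3 ± 0.394 FPKM in siCircGigyf2 cells and 14.2 ± 0.0456 FPKM in siNC cells. Map9 fell (26.5 ± 0.379 FPKM in siCircGigyf2 cells and 32.8 ± 0.801 FPKM in siNC cells), as did Mapre1, which encodes the plus-end protein EB1 (22.8 ± 0.782 FPKM in siCircGigyf2 cells and 27.2 ± 0.381 FPKM in siNC cells). Limma adjusted p for these 4 lay between 0.000152 and 0.00102. Map4, which shares tau's repeats and is named after its values were seen, also rose, with 33.9 ± 1.01 FPKM in siCircGigyf2 cells and 26.6 ± 0.597 FPKM in siNC cells (limma adjusted p = 0.000171).

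Of 32 tubulin genes and tubulin-modifying enzymes tested, 11 rose and 3 fell (43.8% in all, median 0.05, 0.03 without siNC replicate 1). Tubb2b averaged 124 ± 1.77 FPKM in siCircGigyf2 cells and 83.4 ± 1.64 FPKM in siNC cells (SD, n = 3 each), a log2 rise of 0.57 (limma adjusted p = 7.86e-06), and Tubb3, the neuronal beta-tubulin gene, rose by 0.55. The other beta-tubulin genes tested, Tubb2a, Tubb4b, Tubb5 and Tubb6, named after their values were seen, rose by 0.50, 0.31, 0.36 and 0.44, with 0.23 for Tubb5 after quantile normalization. The alpha-tubulin gene Tuba1c fell, with 30.8 ± 3.52 FPKM in siCircGigyf2 cells and 39.0 ± 0.842 FPKM in siNC cells, as did Vash2, a tubulin carboxypeptidase gene, by 0.31. The alpha-tubulin genes went both ways: the more abundant Tuba1a, named after its values were seen, rose, with 520 ± 27.1 FPKM in siCircGigyf2 cells and 462 ± 5.15 FPKM in siNC cells (limma adjusted p = 0.00963, but 0.0556 after quantile normalization). Tuba8, also named after its values were seen, rose by 0.19 (adjusted p = 0.0471), a call lost under 8 of 14 alternatives. Named in the same way, Tuba1b (log2 difference -0.14, adjusted p = 0.250) and Tuba4a (-0.16, 0.0771) did not pass. Tuba1b passed without siNC replicate 3 (-0.25, adjusted p = 0.00577), and Tuba4a without siCircGigyf2 replicate 1 (-0.21). Tubulin genes are close paralogs, so reads may be divided among them and their single values are uncertain.

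Of 29 chaperones, ligases, proteases and modifiers of tau tested, 9 rose and 6 fell (51.7% in all). Their median was 0.04, but 0.0037 after quantile normalization and 0.0145 without siCircGigyf2 replicate 1. Cast, which encodes the calpain inhibitor calpastatin, rose by 0.58 and Ogt, the enzyme that adds O-linked N-acetylglucosamine, by 0.38, whereas the chaperone genes Hsp90ab1 and Bag1 fell by 0.38 and 0.40. The calpain genes Capn1 and Capn2, named after their values were seen, rose as well, by 0.26 and 0.23. Named in the same way, Hsp90aa1 did not pass (log2 difference 0.0072, limma adjusted p = 0.887). Of 25 regulators and partners of GSK3, CDK5 and FYN tested, 2 rose and 7 fell (36.0% in all, median -0.04, -0.06 to -0.02 under the alternatives). Pik3r1, a regulatory subunit of PI3 kinase, rose by 0.14, and Pdpk1, the kinase upstream of AKT, by 0.17, but Pdpk1 was lost without a filter (limma adjusted p = 0.0910), without a mean-variance trend (0.0725) and without siCircGigyf2 replicate 1 (0.125), siCircGigyf2 replicate 2 (0.0747) or siNC replicate 2 (0.114), and Pik3r1 without siNC replicate 1 (0.0549). Cdk5rap3, which encodes a protein that binds p35, and Gskip, which encodes a GSK3-binding protein, fell by 0.34 and 0.27.

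**Figure D4:**
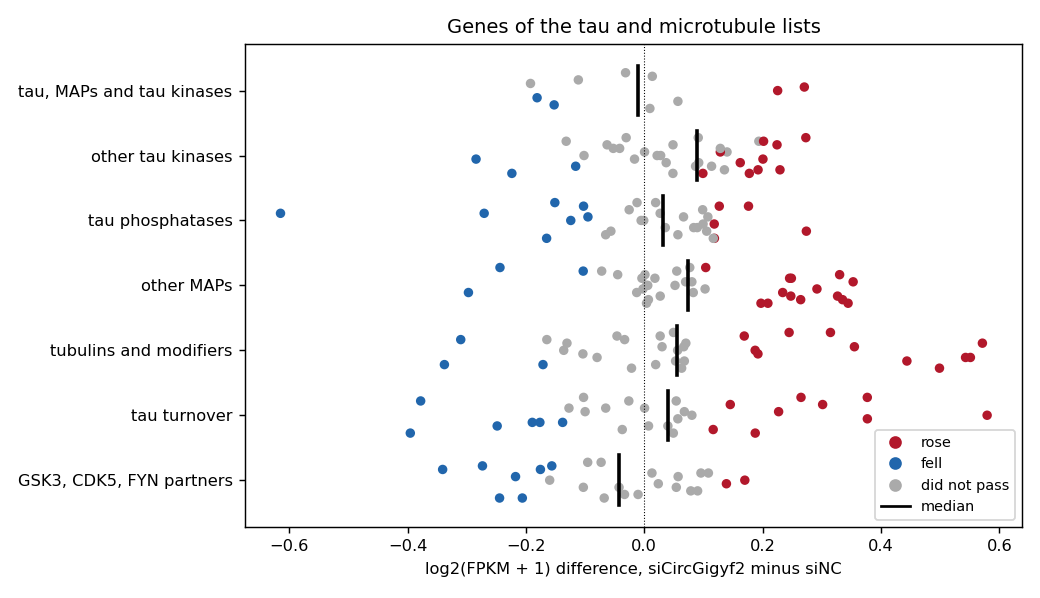
Difference on the log2(FPKM + 1) scale, siCircGigyf2 minus siNC (horizontal axis), of each tested gene (points) of the 10 genes and of the 6 related lists, red where it rose, blue where it fell and grey where it did not pass limma at an adjusted p of 0.05, with the median of each list as a black line. The medians lie between -0.04 and 0.09, and genes that rose and genes that fell occur in every list.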

How the data were processed

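The authors deposited a single table of FPKM, with genes by symbol in rows and the 6 libraries in columns. The build was mm9, per the submitters' processing notes, and no source used here names the aligner, quantifier, annotation or strand handling. FPKM are not counts, so no count model was used. Titles gave the groups and matched the column names.

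The test was limma 3.58.1 (R 4.3.3) on log2(FPKM + 1) for genes averaging at least 1 FPKM, two-sided, with a mean-variance trend, no covariates and a threshold of 0.05. It was checked on simulated data with independent noise and far fewer changed genes than were called here. That check does not cover effects shared by the libraries of a group. The log2(FPKM + 1) scale understates changes of low genes. Exact permutation tests used scipy 1.17.1 in Python 3.11.15. The genes, the related lists, the naming rule and the 7-base word were chosen with earlier results of these data known. From each list the rule names up to 2 rises and 2 falls, the largest among genes that passed and had no overlap between groups; it also names the 3 nearest profiles of Mapt, Map2 and Cdk5r1.

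GENCODE M21 (GRCm38, not mm9) supplied the 3' UTR of each gene's longest coding transcript and the exon overlaps, joined by symbol, and no coordinates are printed. Alternatives were a pseudocount of 0.1, no filter, a stricter filter (5 FPKM), quantile and median-of-ratios scaling, a replicate block, no trend, robust empirical Bayes and leaving out each library.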

Additional observations from a re-analysis of the deposited data

How the results depend on the processing

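Mapt, Map2, Gsk3b and Fyn kept their direction and stayed past the threshold under all 14 alternatives. Their log2 differences ranged from -0.17 to -0.13, from 0.22 to 0.23, from 0.24 to 0.29 and from -0.20 to -0.17. Cdk5r1 passed without a mean-variance trend (-0.19, adjusted p = 0.0244) and under none of the other 12 alternatives; it could not be fitted under a filter of 5 FPKM. The sign of Map1b turned after quantile normalization (-0.049) and without siCircGigyf2 replicate 3 (-0.0045, with 0.032 the highest when 1 library was left out), and that of Cdk5 without siCircGigyf2 replicate 3 (-0.040) and without siNC replicate 2 (-0.0053), with 0.035 the highest. Tubd1, a tubulin that did not pass, turned to 0.026 without siNC replicate 1 (lowest -0.12), an alternative added after seeing the data. Leaving out libraries, the filter of 5 FPKM, no trend and robust empirical Bayes were added in this way for the lists, and all alternatives for single genes other than the 10. The ratios of Map2 to Mapt (0.36 to 0.41) and of Gsk3a to Gsk3b (-0.34 to -0.27) kept their direction when 1 library was left out or a pseudocount of 1 was added. The genes called over the whole table numbered 3521 to 4423, and the 10 gave 4 or 5. Libraries of the same replicate number had correlations of deviations of 0.163, -0.0208 and 0.0025. Those of different numbers ran from -0.119 to 0.131, so these few weak values cannot tell whether the numbers pair libraries. With the number as a replicate block 3973 genes passed, and the same 4 of the 10, but Cdk5r2 did not (adjusted p = 0.0514). Absolute depth is unknown, so no counting error can be given for genes near 1 FPKM such as Cdk5r1.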
